A study of Mus musculus with 27 samples.

Results

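Fibro-adipogenic progenitors (FAPs) are mesenchymal cells that lie between the fibres of skeletal muscle, and 10 genes that mark them were followed through injury and repair of mouse muscle. The genes were Pdgfra, Ly6a, Pi16, Dpp4, Cd34, Dcn, Lum, Smoc2, Mfap5 and Clec3b, chosen by name, and they are 10 of the 55852 entries in the table of injured muscle and 10 of the 55677 entries in the table that holds control muscle. All 10 passed the filter on low values in both tables (1 TPM or more in 3 or more libraries) and were at or above 1 TPM in every library. TPM gives a gene's share of a library's transcripts after correction for gene length.

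RNA was sequenced from whole muscle of male WT C57BL/6J mice and of mice labelled KO, which carry a global loss of Gsdme (gasdermin E, a pore-forming protein of the cell membrane). Both genotypes were injured with CTX, cardiotoxin from the cobra Naja pallida, which lyses muscle fibres, and their muscle was taken on D1, D4, D7 and D14, which gave 8 groups of 3 and 24 injured libraries in all. WT muscle without injury gave another 3 libraries, called control here. Samples titled KO are entered as knockdown in their genotype field. The study names the gastrocnemius and, for control, the contralateral muscle, whereas the deposited design names thigh muscle and an unloaded control. Per the study, sequencing was done in a batch of injured and contralateral muscle and in a batch of the WT and KO time course. Since it is not said in which of them the WT D1 muscle was sequenced, batch cannot be told apart from injury in the control comparison or from genotype on D1. The same holds for the WT step from D1 to D4 and for the change in the genotype difference between these days, which also rest on WT D1. Age was not given for these mice. Myofibre genes were abundant in every library, with a sum of 43332 TPM or more over the 10 listed, as muscle tissue has them.

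FAPs are known as the main fibroblast-like stroma of muscle. After injury they are known to divide, to secrete matrix and signals that serve the myogenic cells, and then to decline in number as fibres regrow, and under other conditions they can become adipocytes or matrix-producing fibroblasts. PDGFRα and Sca-1, the product of Ly6a, are the surface proteins by which they are usually sorted, while Pi16 and Dpp4 mark a progenitor-like fibroblast state found in the connective tissue of many organs. None of the 10 genes belongs to FAPs alone: Ly6a and Cd34 are also used by endothelial and blood cells, Cd34 by quiescent satellite cells, and Dcn and Lum by tendon fibroblasts. In whole muscle, fewer cells of a type and less RNA per cell cannot be told apart.

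The labels were checked with the targeted gene. Gsdme was at 2.76, 4.85 and 3.16 TPM in the WT D1 libraries and at 1.53, 1.28 and 2.17 TPM in the KO D1 libraries. KO libraries lay below WT libraries without overlap on D1, D4 and D7, with means of 3.59 and 1.66, 2.77 and 1.33, and 2.15 and 1.11 TPM. On D14 the groups overlapped, with 1.46 to 2.26 TPM in WT and 1.27 to 1.96 TPM in KO. The transcript was therefore lower but still present in the libraries labelled KO, and every direction given for KO below rests on these labels. TPM carries no read number, so the depth of the libraries is unknown. From 11785 to 14704 genes reached 1 TPM per library.

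In the mm10 assembly (GRCm38, GENCODE release M21 annotation) the members lie on 8 chromosomes, and all are protein-coding. Dcn (chr10:97479609-97518143) and Lum (chr10:97565128-97572703) are neighbours on the plus strand with 46984 bases and no annotated gene between them, followed by the related Kera and Epyc. Pi16 (chr17:29317680-29330593) and Smoc2 (chr17:14279506-14404790) share a chromosome without being neighbours. Pdgfra is at chr5:75152292-75198215, Ly6a at chr15:74994877-74998031, Dpp4 at chr2:62330073-62412231, Cd34 at chr1:194938819-194961279, Mfap5 at chr6:122505845-122529290 and Clec3b at chr9:123150946-123157432. Antisense or other genes overlap Pdgfra, Dpp4, Cd34 and Smoc2, and none of those listed under their names in both tables exceeded 0.79 TPM. An antisense gene also overlaps Pi16. Strand use in the counting is not stated, so reads of such partners cannot be separated. Ly6a is part of a family of similar genes, and how reads shared with them were assigned is not known.

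RefSeq promoter windows (GRCm38.p6, from 250 bases before to 50 bases after the start) were at hand for 4 of the 10 members, namely Pdgfra, Pi16, Dpp4 and Cd34. Those of Pi16 and Dpp4 are shown because these progenitor markers had their highest mean on the same day in each genotype, as described below. The Pi16 window is at chr17:29318632-29318931 on the plus strand and the Dpp4 window at chr2:62412182-62412481 on the minus strand. The Pi16 window lies wholly within the gene interval given above, so its start is not the first base of that interval. Capitals mark matches to the TATA box in the form TATAAA, to the GC box in the form GGGCGG, to the CCAAT box, to the core of the TEAD motif in the form GGAATG, or to the AP-1 motif in the form TGANTCA. Both strands were searched, and the matches do not overlap.
Pi16: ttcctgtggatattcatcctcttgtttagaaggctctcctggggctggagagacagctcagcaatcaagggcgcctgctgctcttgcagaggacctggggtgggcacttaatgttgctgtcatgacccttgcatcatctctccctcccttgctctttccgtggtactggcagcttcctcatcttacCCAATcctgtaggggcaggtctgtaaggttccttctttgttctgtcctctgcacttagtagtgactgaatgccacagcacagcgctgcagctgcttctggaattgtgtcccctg
Dpp4: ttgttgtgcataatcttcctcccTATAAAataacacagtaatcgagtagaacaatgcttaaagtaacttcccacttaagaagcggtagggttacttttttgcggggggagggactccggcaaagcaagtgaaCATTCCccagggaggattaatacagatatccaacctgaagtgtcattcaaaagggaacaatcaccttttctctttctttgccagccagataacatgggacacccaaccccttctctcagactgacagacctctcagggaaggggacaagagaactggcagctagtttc
The Pi16 window held CCAAT, 64 bases before the start, a motif present in 37.4% of the 32851 windows searched. The Dpp4 window held TATAAA 227 bases before the start and CATTCC, the other strand of GGAATG, 118 bases before it, motifs present in 13.6% and 14.7% of all windows. GGGCGG (35.7% of windows) and TGANTCA (7.81%) were found in none of the 4, and the windows of Pdgfra and Cd34 held none of the 5 motifs.

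Levels spanned a wide range among the members, in control from a mean of 1.49 TPM for Dpp4 to 446 TPM for Dcn. Dcn, a small leucine-rich proteoglycan that coats collagen fibrils, had the highest mean TPM in all 8 injured groups and in control, and made up from 29.1% (WT D4) to 48.5% (KO D14) of the members' summed mean TPM. Dpp4 had the lowest mean and Pdgfra the lowest but one in every group, and these neighbours never overlapped. The ranking between them shifted. In control it ran Dcn, Clec3b, Ly6a, Smoc2, Mfap5, Cd34, Pi16, Lum, Pdgfra, Dpp4, and only Clec3b with Ly6a and Mfap5 with Cd34 overlapped among neighbours. In WT D4 it ran Dcn, Mfap5, Ly6a, Clec3b, Cd34, Smoc2, Lum, Pi16, Pdgfra, Dpp4, where Mfap5 with Ly6a and the run from Cd34 to Pi16 overlapped. In KO D14 it was Dcn, Clec3b, Ly6a, Smoc2, Cd34, Mfap5, Pi16, Lum, Pdgfra, Dpp4, the order of control but for Cd34 and Mfap5, which overlapped. In WT D1 and KO D1, Dcn overlapped with Ly6a, and in the other injured groups Dcn stood apart from its neighbour.

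**Figure D1:**
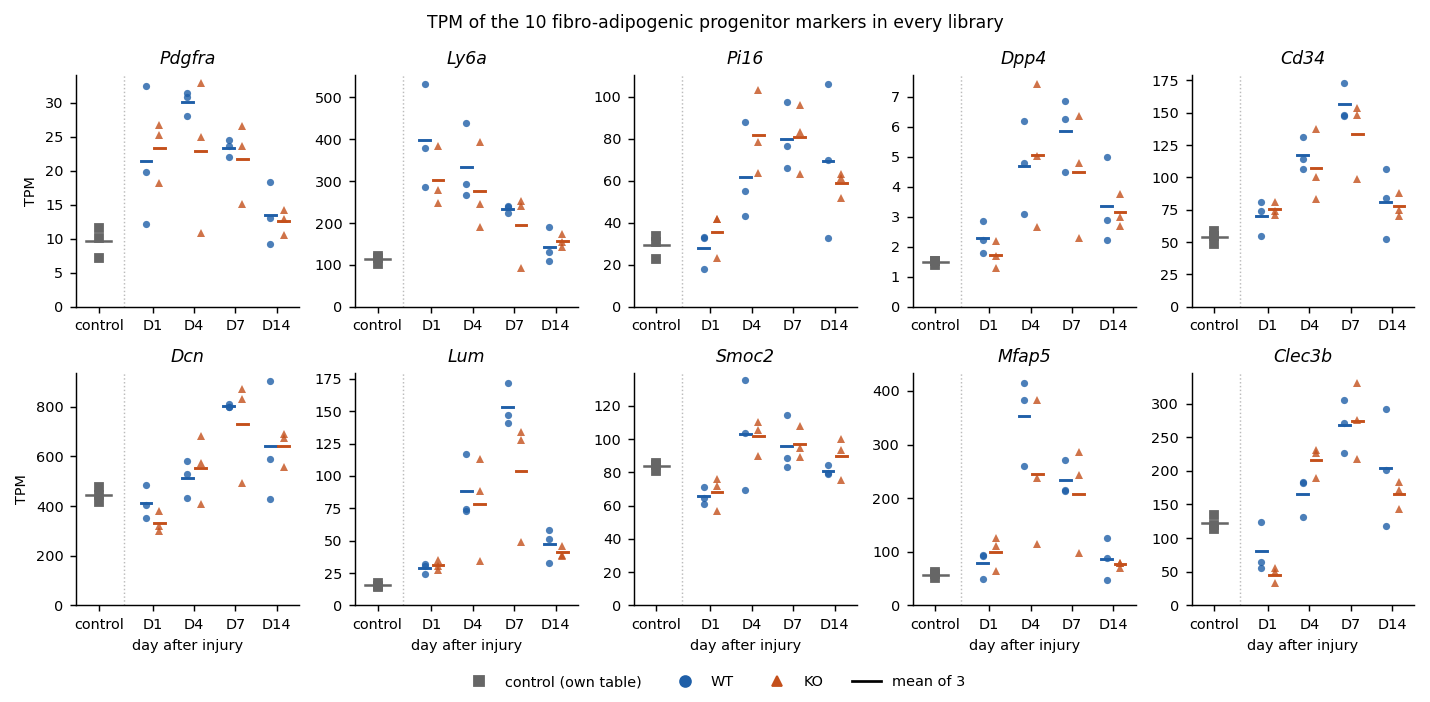
TPM (y axis, linear, each panel on its own scale) of each member in every library, by day after injury, with control squares left of the dotted line from the separately quantified control table, WT circles, KO triangles and bars for the mean of 3. Ly6a is highest on D1, Mfap5 on D4 and Lum on D7, whereas Smoc2 stays between 56.8 and 136 TPM throughout.

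To see how the markers answered injury within a day, WT D1 muscle was compared with control muscle inside the control table, as log2(TPM + 1) with limma and Benjamini-Hochberg adjustment over all 13041 genes tested. Of the 10 members, 3 were higher at an adjusted p under 0.05 and 0 were lower, while 55.4% of all genes were called higher and 5.64% lower. The members' median log2 difference was 0.38 and that of all genes 0.66. A smaller share of members than of all genes was therefore called higher.

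Among the surface proteins, Ly6a had the largest difference. Sca-1, its product, is a lipid-anchored antigen whose gene is induced by interferons. Ly6a was at 123, 102 and 116 TPM in control and at 380, 534 and 286 TPM in WT D1. The groups did not overlap, and the log2 difference was 1.76 (SE 0.23, adjusted p = 0.00154). Pdgfra, the receptor tyrosine kinase for PDGF, was at 11.7, 7.19 and 10.2 TPM in control and at 19.9, 32.5 and 12.2 TPM in WT D1. Its groups stood just apart, with WT D1 replicate 3 close to control, and the log2 difference was 1.00 (SE 0.34, adjusted p = 0.0319). Cd34, a sialomucin of progenitor and vascular cells, and Dpp4, a membrane peptidase, had log2 differences of 0.36 (adjusted p = 0.126) and 0.40 (adjusted p = 0.117). Pi16, a membrane-anchored protein of the CAP family, had -0.41 (adjusted p = 0.224). The WT D1 libraries were quantified for both tables, and Pi16 was from 23.1% to 31.0% higher in the injured table and Clec3b from 3.31% to 4.39% higher, whereas the other 8 members differed by less than 0.7%.

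Among the secreted proteins, Lum was the one called. Lumican is a proteoglycan of the same family as decorin. Lum was at 14.0, 14.9 and 17.6 TPM in control and at 30.3, 31.8 and 24.3 TPM in WT D1, with no overlap and a log2 difference of 0.85 (SE 0.18, adjusted p = 0.00568). Clec3b, which encodes tetranectin, a plasminogen-binding lectin, was at 134, 114 and 120.1 TPM in control and at 62.4, 53.4 and 119.6 TPM in WT D1. Its groups overlapped through WT D1 replicate 3, and the log2 difference of -0.72 had an adjusted p of 0.053. With the replicate number as a block the adjusted p was 0.0317 and Clec3b was called lower. Contralateral muscle would pair the groups by animal, but the labels do not tie control to WT D1 by animal, and same-numbered libraries had correlations of 0.00213 to 0.0611 in their deviations. Smoc2, a calcium-binding matricellular protein, had -0.35 (adjusted p = 0.0657), Dcn -0.12 (adjusted p = 0.574) and Mfap5, a protein of fibrillin microfibrils, 0.41 (adjusted p = 0.192).

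These differences depended on how libraries were scaled to one another. Scaling by the median of ratios moved the median of all genes from 0.66 to -0.01. Under it Ly6a was still called higher (log2 difference 0.98), Pdgfra (0.26) and Lum (0.10) were no longer called, and Cd34 (-0.42), Dcn (-0.91), Smoc2 (-1.13), Pi16 (-1.16) and Clec3b (-1.50) were called lower. Thus 1 member was called higher and 5 lower under that scaling, 1 and 4 after quantile normalization, and 1 and 3 after the 50 most abundant genes were removed. The shares of all genes called under these scalings, or with a library left out, are not given here. These counts therefore do not set the members apart from other genes. Ly6a was called under all 3 and without any single library, Pdgfra was lost without any of 4 libraries, among them WT D1 replicates 1 and 2, and without WT D1 replicate 3 the count of members called went from 3 to 8.

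**Figure D2:**
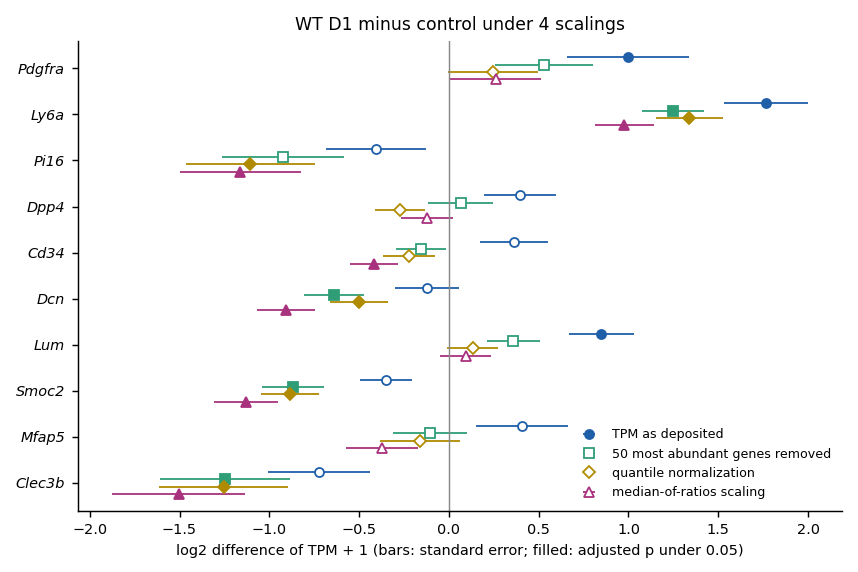
Log2 difference in TPM + 1 between WT D1 and control (x axis) for each member under the deposited TPM and 3 other scalings, with standard errors and filled symbols where the adjusted p was under 0.05. Ly6a stays right of 0 under all 4, at 0.98 or more, while Cd34, Mfap5 and Dpp4 cross 0 under at least 1 of them.

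Other lists moved with injury, in a comparison where 55.4% of all genes were called higher and 5.64% lower. All 9 tested leukocyte markers and all 10 proliferation genes were called higher, such as S100a9 (log2 difference 5.63) and Cdk1 (4.56). Of the myofibre genes 3 of 10 were called lower, led by Myh2 (-3.14). The summed leukocyte markers were from 134 to 176 TPM in control and from 731 to 3595 TPM in WT D1, the summed myofibre genes from 170950 to 186070 and from 86088 to 176730 TPM, and in both it was WT D1 replicate 3 that lay nearest to control. Endothelial markers, which bear on Ly6a and Cd34, were mixed, with 2 of 10 higher (Esam 0.76, Vwf 0.54) and 1 lower (Kdr -0.64). Mural markers were higher for 5 of 8, such as Mcam (1.24), satellite cell markers for 3 of 4, such as Myod1 (2.00), and tenocyte markers for 2 of 6, Thbs4 (1.78) and Scx (1.39). Adipocyte genes were higher for 1 of 10, Cebpa (1.92), and lower for 4, such as Adipoq (-2.69), Schwann cell markers were lower for 3 of 6, such as Mbp (-1.58), and of the epidermis markers 2 were tested and 1, Sfn, was higher (0.99). Whether these shares set the members' differences was not tested.

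Fibroblast genes outside the members also differed from control, beside 55.4% of all genes called higher and 5.64% lower. Of the lists in this paragraph, only the matrix and activation genes and the PDGF genes had a larger share called higher than all genes. Of 12 matrix and activation genes of fibroblasts 8 were called higher and 0 lower, with Timp1, an inhibitor of matrix proteases, at 5.28 and Postn, periostin, at 2.73. Of the elastic microfibril genes 5 of 11 were higher (Ltbp2 3.18, Emilin1 1.82), of the small leucine-rich proteoglycans 4 of 8 (Bgn 1.87, Aspn 0.98) and of the other fibroblast genes 10 of 20, with Has1, a hyaluronan synthase, at 2.68 and Islr lower at -0.62. Among PDGF ligands and receptors 3 of 5 were higher, including the ligands Pdgfa (0.98) and Pdgfb (0.82). Of 19 genes that the study used to name FAP subgroups in single cells, 6 were higher, led by the chemokine Ccl7 (7.21) and Fgl2 (2.08), and 3 were lower, among them Myoc (-0.97) and Enpp2 (-0.67). That list was chosen by the study, though on another data set.

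To follow the markers through repair, successive days were compared within each genotype in the injured table, where 15718 genes were tested. Between D1 and D4 about as many members were called higher as were not. In WT, 6 of 10 were called higher and 0 lower, against 14.6% of all genes higher and 5.27% lower. In KO, 5 of 10 were called higher and 0 lower, against 7.18% and 12.2%. The members' median log2 difference was 0.76 in WT and 0.89 in KO, and that of all genes 0.17 and -0.15. Lum, Pi16, Clec3b and Smoc2 were called in both genotypes, Mfap5 and Cd34 in WT, and Dpp4 in KO. No difference between the genotypes in these steps was called, in a test chosen after the values were seen. The KO step less the WT step was largest for Clec3b (log2 1.15, SE 0.43), Mfap5 (-1.005, SE 0.62) and Pdgfra (-0.71, SE 0.48). Their adjusted p with limma was 0.204, 0.29 and 0.33. Such errors leave room for sizeable differences, and the share of all genes called in this test is not given here. WT and KO steps share no library.

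Mfap5 had the largest step in WT. It was at 92.4, 94.4 and 49.6 TPM in WT D1 and at 260.2, 415 and 384 TPM in WT D4, with no overlap and a log2 difference of 2.18 (SE 0.44, adjusted p = 0.00175). In KO it was at 126, 110.4 and 63.7 TPM on D1 and at 384, 114 and 238 TPM on D4. KO D4 replicate 2 lay within the D1 range, and the log2 difference of 1.17 (SE 0.44) had an adjusted p of 0.0643. Without that library and KO D7 replicate 2 it was 1.64 and was called.

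Clec3b had the largest step in KO, from 49.6, 54.9 and 32.8 TPM on D1 to 231, 189.9 and 226 TPM on D4. The log2 difference was 2.24 (SE 0.30, adjusted p = 0.00015). In WT it was at 64.7, 55.7 and 124 TPM on D1 and at 132, 182 and 184 TPM on D4, a log2 difference of 1.09 (SE 0.30, adjusted p = 0.0144). Neither genotype had an overlap between the days.

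Lum was at 30.3, 31.8 and 24.2 TPM in WT D1 and at 73.2, 117 and 74.4 TPM in WT D4, and the log2 difference was 1.56 (SE 0.37, adjusted p = 0.00574). In KO it was at 34.8, 30.7 and 27.7 TPM on D1 and at 113, 34.0 and 88.1 TPM on D4, a log2 difference of 1.15 (adjusted p = 0.0367). KO D4 replicate 2 overlapped with D1, and the other libraries of KO D4 lay far above it. Dcn, its neighbour in the genome, moved less, with 0.32 (adjusted p = 0.408) in WT and 0.71 (adjusted p = 0.0519) in KO.

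Of the progenitor markers, Pi16 was at 33.2, 18.2 and 32.9 TPM in WT D1 and at 43.1, 54.9 and 87.9 TPM in WT D4. The groups did not overlap, and the log2 difference was 1.10 (SE 0.36, adjusted p = 0.0348) in WT and 1.20 (SE 0.36, adjusted p = 0.0261) in KO. Dpp4 was at 2.20, 1.31 and 1.69 TPM in KO D1 and at 7.44, 2.67 and 5.04 TPM in KO D4, a log2 difference of 1.08 (SE 0.32, adjusted p = 0.0256), and in WT the difference was 0.76 (adjusted p = 0.101). Cd34 was at 73.7, 81.1 and 54.6 TPM in WT D1 and at 107, 114 and 131 TPM in WT D4, a log2 difference of 0.76 (SE 0.23, adjusted p = 0.0254), with 0.47 (adjusted p = 0.147) in KO. Smoc2 had small differences with a small spread, 0.59 (SE 0.19, adjusted p = 0.0346) in WT and 0.58 (SE 0.19, adjusted p = 0.041) in KO.

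The sorting markers were not called at this step. Pdgfra had log2 differences of 0.57 (95% interval -0.14 to 1.29, adjusted p = 0.264) in WT, a value close to that of Smoc2 with a wider spread, and -0.14 (adjusted p = 0.795) in KO, and Ly6a -0.25 (adjusted p = 0.657) and -0.17 (adjusted p = 0.744). Ly6a was already high on D1, at 379, 533 and 286 TPM in WT and 385, 278 and 248 TPM in KO. Its highest mean was on D1 in both genotypes, as was that of Pdgfra in KO.

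The calls between D1 and D4 differed in how far they rested on single libraries. Mfap5 and Lum in WT and Clec3b in KO were called without any single library and under the 3 other scalings, whereas the WT count was from 2 to 4 under those scalings, 2 without WT D4 replicate 2 and 3 without WT D1 replicate 2 or WT D4 replicate 3, and 2 when only these 2 groups entered the fit. The KO count was from 7 to 8 under the scalings, 1 without KO D1 replicate 3 or KO D4 replicate 1, 3 without KO D1 replicate 1 or 2 or KO D4 replicate 3, and 1 when only these 2 groups entered the fit. For these alternatives no share of all genes is given here, so the counts do not set the members apart from other genes.

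**Figure D3:**
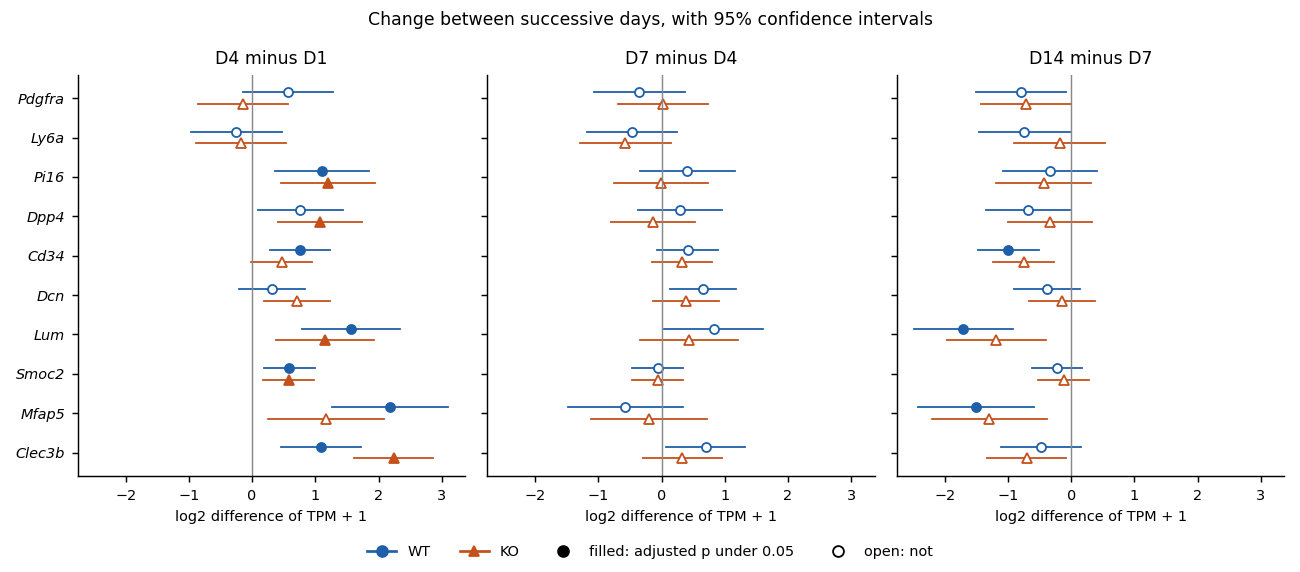
Log2 difference in TPM + 1 (x axis) between successive days for each member, in WT (blue circles) and KO (orange triangles), with 95% confidence intervals and filled symbols for an adjusted p under 0.05. Filled symbols lie right of 0 from D1 to D4, are absent from D4 to D7, and lie left of 0 from D7 to D14 in WT.

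Other fibroblast genes were higher at the same step. In WT, 10 of 12 fibroblast matrix and activation genes were called higher, led by Cthrc1 (log2 difference 4.98) and Postn (4.85), and 10 of 12 elastic microfibril genes, led by Mfap4 (3.51) and Mfap2 (3.23). In KO, 6 and 5 of 12 were called higher, among them Col1a1 (1.97) and Col1a2 (1.77), which encode type I collagen, and Mfap4 (2.59) and Mfap2 (2.44), while Timp1 was lower (-2.89). Of the small leucine-rich proteoglycans tested, 4 of 9 were higher in WT (Aspn 2.97, Bgn 2.36) and 1 of 9 in KO (Ecm2 1.24). Of the other fibroblast genes, 13 of 21 were higher in WT and 1 lower, and 5 were higher and 2 lower in KO. Pdgfrl (3.63 in WT and 2.64 in KO) was the highest in WT and Islr (2.80) in KO, and Cxcl14 was lower in both (-1.14 and -1.51). The receptor Pdgfrb (1.20) and the ligand Pdgfc (2.21) were higher in WT, and in KO 0 of 5 PDGF genes were called. Of the FAP subgroup genes, 4 were higher and 3 lower in WT and 6 and 3 in KO, with the Wnt antagonist Sfrp4 at 3.36 and 2.97 and Ccl7 at -3.60 and -5.76.

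Genes of other cells moved at the same step. In WT, 3 of 6 satellite cell markers were higher, such as Pax7 (1.91), 5 of 10 myofibre genes were lower, such as Pvalb (-1.62), and 1 of 10 leukocyte markers was higher, Csf1r (1.52). In KO, 5 of 10 leukocyte markers were lower, led by the neutrophil genes S100a9 (-6.82) and S100a8 (-6.81), and 3 of 10 proliferation genes were lower. Of the 10 endothelial markers, 1 was lower in each genotype, Flt1, and 0 were higher. Of the mural cell markers 2 of 8 were higher in WT, Cspg4 (1.24) and Notch3 (0.77), and of the tenocyte markers 2 of 6, Tnmd (1.59) and Scx (1.34). The part of these cells in the members' steps was not tested.

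From D4 to D7 no member was called in either genotype. In WT, 0 of 10 had an adjusted p under 0.05 with limma, against 3.04% of genes called higher and 9.31% lower. At an unadjusted p under 0.05 there were 3 of 10, near the share of all genes, 33.5%. In KO, 0 of 10 were called and 0 had an unadjusted p under 0.05, while 0% of all genes were called higher or lower and 9.89% had an unadjusted p under 0.05. The lowest adjusted p of a member was 0.0853, for Dcn in WT. The median log2 difference of the members in WT was 0.35 and that of all genes -0.24. Dcn was at 433, 582 and 530.2 TPM in WT D4 and at 809.8, 799 and 798.6 TPM in WT D7, so that the days did not overlap and the D7 libraries were close to one another. Its log2 difference was 0.65 (SE 0.25). Lum had 0.82 (adjusted p = 0.13) and Clec3b 0.69 (adjusted p = 0.116), whereas Mfap5 had -0.57 (adjusted p = 0.362) and Ly6a -0.47 (adjusted p = 0.34). Under the 3 other scalings 3 to 4 members were called higher in WT, with Dcn (0.90 to 1.01), Lum (1.10 to 1.18) and Cd34 (0.69 to 0.77) in each. The shares of all genes called under those scalings are not given here.

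The step from D4 to D7 also differed within families. Among the small leucine-rich proteoglycans of WT muscle, Kera (2.01) and Omd (0.83) were called higher and Podn (-1.07) lower. Of the elastic microfibril genes 2 of 12 were lower (Ltbp2 -2.40, Eln -1.21), and of the fibroblast matrix genes 1 of 12, Acta2 (-1.56), the actin of contractile fibroblasts and of vessel walls. Of the FAP subgroup genes 3 were higher, led by Chodl (1.79) and Myoc (1.17), and Hsd11b1 was lower (-0.89). Of the satellite cell markers 3 of 6 were lower, such as Myod1 (-1.95), of the mural markers Rgs5 was higher (1.41) and Cspg4 lower (-0.77), and of the endothelial markers Vwf was lower (-0.77).

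From D7 to D14 all 10 members had a negative difference in both genotypes on the deposited TPM. In WT, 3 of 10 fell at an adjusted p under 0.05 and 0 rose, but 30.9% of all genes were called lower and 0.923% higher, so that the members' share was near that of all genes. In KO, 0 of 10 were called with limma and the lowest adjusted p was 0.125, against 0.477% of genes called lower and 0.0827% higher. At an unadjusted p under 0.05 there were 5 of 10, beside 19.3% of all genes. The members' median log2 difference was -0.71 in WT and -0.57 in KO, and that of all genes -0.45 and -0.19.

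In WT, Lum fell most. It was at 172, 141 and 147 TPM on D7 and at 51.0, 58.4 and 33.0 TPM on D14, without overlap. The log2 difference was -1.71 (SE 0.37, adjusted p = 0.00734), and in KO the difference was -1.18 (adjusted p = 0.131). Mfap5 was at 272, 215 and 214 TPM in WT D7 and at 88.9, 126 and 47.7 TPM in WT D14, a log2 difference of -1.50 (SE 0.44, adjusted p = 0.0186), with -1.30 (adjusted p = 0.148) in KO. Cd34 was at 148, 148 and 173 TPM in WT D7 and at 84.1, 106 and 52.7 TPM in WT D14, a log2 difference of -0.99 (SE 0.23, adjusted p = 0.0087), with -0.75 (adjusted p = 0.125) in KO. Dcn (-0.39), Pi16 (-0.34), Clec3b (-0.48) and Smoc2 (-0.23) were not called in WT, and median-of-ratios scaling, which moved the median of all genes from -0.45 to 0, gave these 4 a positive sign, as it did Dcn, Smoc2 and Ly6a in KO. Lum was called under all 3 other scalings, Cd34 under 2 and Mfap5 under none. Without WT D14 replicate 3 the WT count went from 3 to 0, and without KO D7 replicate 2 the KO count went from 0 to 3. Shares of all genes called without those libraries are not given here.

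Matrix genes of fibroblasts were lower at this step, where 30.9% of all genes were called lower in WT. In WT, all 12 fibroblast matrix and activation genes were called lower, led by Postn (-4.12) and Cthrc1 (-3.85), and 8 of 12 elastic microfibril genes (Emilin1 -2.88, Mfap2 -2.57). Of the other fibroblast genes 14 of 21 were lower, led by Adam12 (-3.36) and Fstl1 (-2.14), and 1, Gsn (0.89), was higher. Among PDGF genes Pdgfc (-1.55) and Pdgfrb (-0.71) were among 3 of 5 that were lower, and among FAP subgroup genes 3 were lower, led by Tnmd (-2.07) and Thbs4 (-2.05), and Myoc was higher (1.01). In KO, Mfap2 (-2.47), Eln (-1.62) and Col15a1 (-1.03) were the genes of these lists that were called. In WT, 7 of 10 leukocyte markers, 9 of 10 proliferation genes, 5 of 10 endothelial markers, 5 of 6 tenocyte markers, 3 of 8 mural markers and 2 of 6 satellite cell markers were also lower.

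The levels on D14 stood between those of the peak and those of control muscle for most members. These are levels of separately quantified tables, set side by side without a test. Lum on D14 was at 47.4 ± 13.1 (SD, n = 3) TPM in WT and 41.2 ± 4.29 TPM in KO, beside 15.5 ± 1.86 TPM in control, so that the means were 3.06 and 2.66 times that of control. Pi16 was at 69.5 ± 36.8 and 58.8 ± 6.28 TPM beside 29.2 ± 5.6 TPM, and Dpp4 at 3.37 ± 1.45 and 3.15 ± 0.557 TPM beside 1.49 ± 0.0839 TPM. For the same WT D1 libraries Pi16 was from 23.1% to 31.0% higher in the injured table, so its D14 levels are not on the scale of control. Smoc2 was at 80.8 ± 2.91 and 89.7 ± 12.8 TPM beside 83.7 ± 2.39 TPM, the mean nearest to control among the 10. The members' means summed to 932 TPM in control, to 1188, 1772, 2053 and 1372 TPM on D1, D4, D7 and D14 in WT, and to 1018, 1690, 1851 and 1323 TPM in KO.

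The peaks fell into groups. Ly6a had its highest mean on D1 in both genotypes, at 399 ± 125 TPM in WT and 303 ± 71.8 TPM in KO, with its lowest on D14. Mfap5 and Smoc2 were highest on D4 in both, and Cd34, Dcn, Lum and Clec3b on D7 in both. Pi16 and Dpp4 were highest on D7 in WT and on D4 in KO, and Pdgfra on D4 in WT and on D1 in KO. Several of these peaks rest on means that differ by less than the spread: Pi16 was at 81.8 ± 19.9 TPM in KO D4 and 80.8 ± 16.4 TPM in KO D7. The highest mean was 5.33 times the lowest for Lum in WT and 5.99 times for Clec3b in KO, and 1.57 and 1.50 times for Smoc2.

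To investigate whether loss of Gsdme changed the markers, KO was compared with WT on each day. No member was called on any day. With limma, 0 of 10 had an adjusted p under 0.05 on D1, D4, D7 or D14, and 0.00636%, 0%, 0% and 0% of all genes were called. At an unadjusted p under 0.05 there was 1 member on D1, Clec3b, and 0 on the other days, beside 5.38%, 22.7%, 3.06% and 2.06% of all genes on the 4 days. The lowest adjusted p of a member was 0.873, 0.311, 0.776 and 1 on the 4 days. Averaged over days, 0 members and 0.00636% of all genes were called, with a lowest adjusted p of 0.861 and 0 members at an unadjusted p under 0.05, beside 3.54% of all genes. In an F test of whether the difference between KO and WT varied with day, 0 members were called or had an unadjusted p under 0.05, the lowest adjusted p was 0.527, for Clec3b, and 0% of all genes were called and 7.65% had an unadjusted p under 0.05.

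These tests leave room for differences of moderate size. On D4 the interval (95%) of the log2 difference between KO and WT ran from -1.58 to 0.25 for Mfap5 and from -1.22 to 0.21 for Pdgfra, and on D7 from -1.46 to 0.09 for Lum. Averaged over the 4 days the intervals were narrower, and all 10 lay between -0.65 and 0.54. Smoc2 had the narrowest, from -0.14 to 0.26 around 0.06, and Lum one of the widest, from -0.65 to 0.13 around -0.26. The members' median log2 difference between KO and WT was 0.08, -0.06, -0.21 and -0.05 on D1, D4, D7 and D14, and that of all genes 0.09, -0.28, -0.19 and 0.08.

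**Figure D4:**
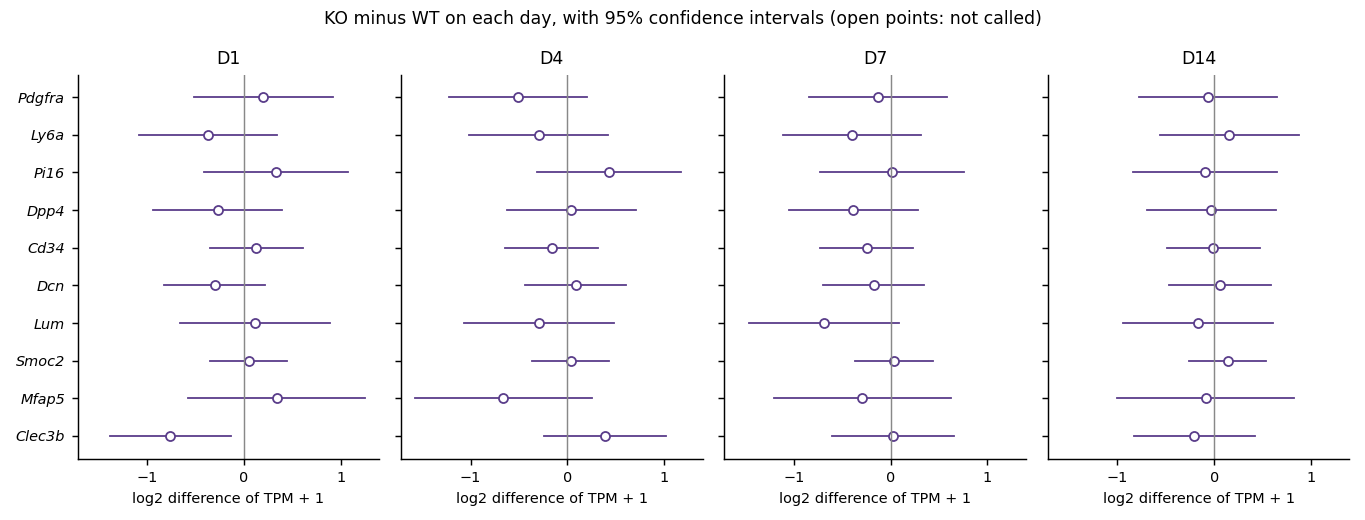
Log2 difference in TPM + 1 between KO and WT (x axis) for each member on each day, with 95% confidence intervals; open points mark an adjusted p of 0.05 or more. The interval excludes 0 for 1 of the 40 points, Clec3b on D1, and on D14 the differences lie between -0.20 and 0.16.

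Clec3b was the member whose genotypes did not overlap on D1 and on D4, in opposite directions. The share of all genes that do so was not computed. On D1 it was at 64.7, 55.7 and 124 TPM in WT and at 49.6, 54.9 and 32.8 TPM in KO, so that every KO library was lower, though by less than 1 TPM at the closest. The log2 difference was -0.76 (SE 0.30, unadjusted p = 0.0205, adjusted p = 0.873 with limma). On D4 it was at 132, 182 and 184 TPM in WT and at 231, 189.9 and 226 TPM in KO, so that every KO library was higher. The log2 difference was 0.39 (SE 0.30, adjusted p = 0.376). On D7 and D14 the genotypes overlapped. On D1, 1 of 10 members had genotypes that did not overlap, beside 6.71% of all genes, and on D4 it was also 1 of 10, beside 14.0%. On D7 it was 1 of 10, Lum, which was at 172, 141 and 147 TPM in WT and 134, 49.1 and 128 TPM in KO, beside 16.5%, and on D14 0 of 10, beside 8.42%. The members' counts were thus near the shares of all genes.

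Related lists gave the same count. On no day was any gene of the 16 other lists called between KO and WT. On D4 the median log2 difference between KO and WT was -1.24 over the 12 fibroblast matrix and activation genes, -0.69 over the 12 elastic microfibril genes and -0.11 over the 19 FAP subgroup genes, beside -0.06 over the members. Over 10 tested leukocyte markers it was -1.12 and over 10 myofibre genes 0.75. The lowest adjusted p in each of these lists apart from the members was 0.212. The libraries of KO D4 were unlike one another, as follows.

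Within a group, most members moved together from library to library. Each library's deviation from its group mean in log2(TPM + 1) was correlated between members over the 24 injured libraries, as a description, since members of 1 library share its RNA and its total. Over 45 pairs the median Pearson's r was 0.60, from -0.49 to 0.91, and 41 were above 0. Lum and Mfap5 had the highest r, 0.91. Smoc2 stood aside, with a median r of 0.02 with the other 9, and Clec3b (0.41) and Pi16 (0.53) were looser than the other 7 (0.73 to 0.77), while Pi16 and Clec3b had r of 0.83 with each other.

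Some libraries stood apart for most members, and r was not recomputed without them. In WT D14, replicate 2 was the highest and replicate 3 the lowest for all 10 members, with summed TPM of 1891 and 913 beside 1312 in replicate 1. In KO D7, replicate 2 was the lowest for 9 members and the highest for Smoc2, with a sum of 1235 TPM beside 2231 and 2087. In KO D4, replicate 2 was the lowest for 8 members and again the highest for Smoc2, with a sum of 1224 TPM beside 2191 and 1656, and replicate 1 was the highest for the other 9. Lum in KO D7 was thus at 134, 49.1 and 128 TPM and Smoc2 at 89.0, 108 and 94.8 TPM. In WT D7, by contrast, the sums were 2046, 1992 and 2120 TPM.

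Leukocyte markers were low in the 3 libraries of low members, and myofibre genes were high in KO D4 replicate 2 and KO D7 replicate 2. The summed leukocyte markers were at 377 TPM in KO D4 replicate 2 beside 3224 and 2724 TPM, at 402 TPM in KO D7 replicate 2 beside 1100 and 1033 TPM, and at 146 TPM in WT D14 replicate 3 beside 285 and 509 TPM. The summed myofibre genes were at 143577 TPM in KO D4 replicate 2 beside 69886 and 119138 TPM, and at 210107 TPM in KO D7 replicate 2 beside 134957 and 136941 TPM. In WT D14 replicate 3 they were at 127968 TPM beside 128634 and 137177 TPM, so that the myofibre genes hardly moved there although all 10 members were lowest. Of the 11 leukocyte markers and of the 10 myofibre genes none was at 0 in all libraries of a group. Over the 24 libraries the deviations of Smoc2 had r of 0.69 with the mean of the myofibre genes and -0.62 with that of the leukocyte markers, whereas Pdgfra had -0.49 and 0.83 and Dpp4 -0.66 and 0.81. Whether these shares account for the members' spread was not tested. With KO D4 replicate 2 and KO D7 replicate 2 both left out, 0 members were called between KO and WT on any day, 5 were called higher from D1 to D4 in KO, and 4 (Lum, Mfap5, Cd34 and Pdgfra) were called lower from D7 to D14 in KO. This choice was made after seeing the data. Many more of all genes were also called from D7 to D14 in KO in that fit, as given below. These counts therefore do not set the members apart from other genes.

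Markers of the other cells that whole muscle holds were present over the injured groups, with group means given here from lowest to highest. Ptprc (CD45) ran from 2.13 TPM in WT D14 to 31.0 TPM in KO D1 and Itgam, an integrin of myeloid cells, from 3.00 to 106 TPM in the same groups. Within WT, Itgam was highest on D1, as Ly6a was, and Ptprc on D4, at 21.8 TPM. Pecam1 and Cdh5, adhesion proteins of endothelium, ran from 49.3 to 91.8 TPM and from 58.5 to 105.5 TPM, highest in WT D7 where Cd34 also had its highest WT mean. Of the mural markers, Rgs5 ran from 50.4 to 135 TPM and Cspg4 from 5.43 to 17.9 TPM. Pax7 and Myf5 of satellite cells were low in every group, at most 5.93 and 4.34 TPM, both in WT D4. The tendon factors Scx and Mkx reached 48.9 TPM in WT D4 and 9.53 TPM in WT D7. The adipocyte genes Adipoq and Plin1 were at most 46.4 and 17.2 TPM, both in KO D14, and the myofibre genes Ckm and Acta1 were at least 5845 and 23594 TPM, both in WT D4. Of the epidermal keratins, Krt14 was listed at 0 in all 8 groups and Krt5 at 0.0233 TPM at most.

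**Figure D5:**
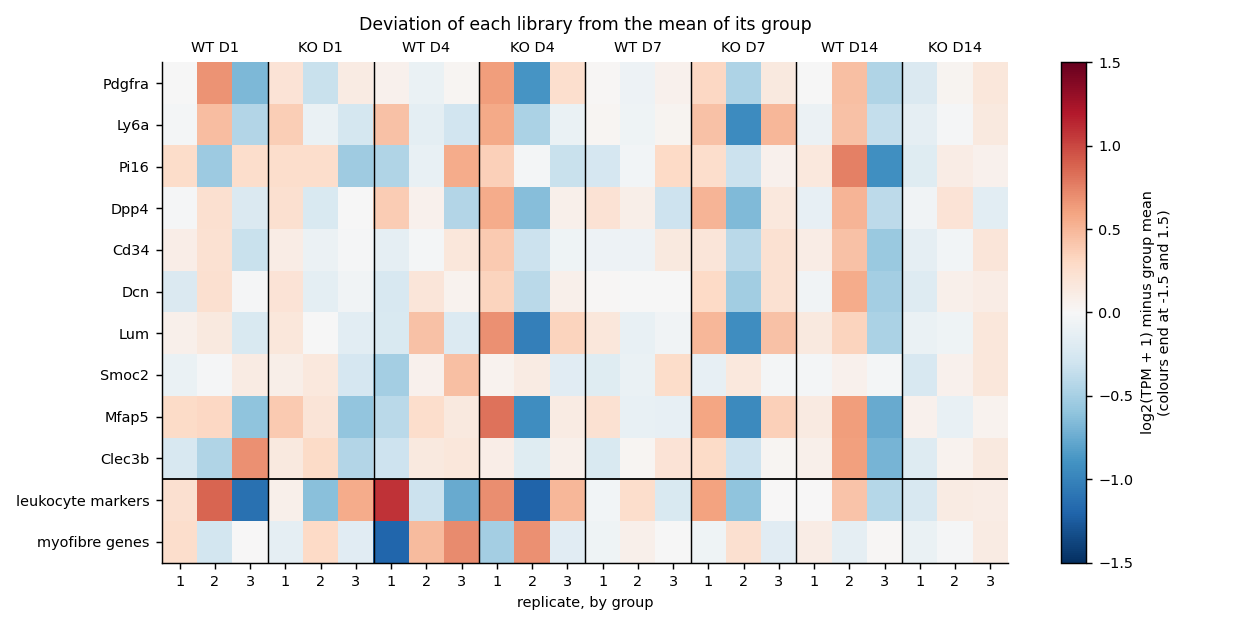
Deviation of each injured library (x axis, 3 replicates in each of 8 groups) from its group mean in log2(TPM + 1), in colour, for the 10 members and, under the line, for the mean of the leukocyte markers and of the myofibre genes. KO D4 replicate 2, KO D7 replicate 2 and WT D14 replicate 3 are blue for most members, and Smoc2 is the exception in both KO libraries.

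Genes with the course most like that of the members were sought among tested genes with a mean of at least 5 TPM, by Pearson's r over the 8 group means, a description over few points. Nearest to the mean of the 10 standardised members were C1s1 (r = 0.996), a complement protease, Efemp1 (0.996), a fibulin of the extracellular matrix that is also on the list of FAP subgroup genes, Gpc3 (0.994), a cell-surface proteoglycan, Abca9 (0.991) and Ssc5d (0.990). Nearest to Mfap5 was Cd248 (0.998), a surface protein of stromal cells and pericytes. Nearest to Pi16 were Tpm2 (0.991), a tropomyosin, and Atp5b (0.986), a subunit of the ATP synthase, and nearest to Smoc2 was Cacna1g (0.981), a calcium channel. For Dpp4, Mff (0.986), Mrpl53 (0.984), Cisd3 (0.982) and Cpq (0.982) came before Dpt (0.980), dermatopontin, a matrix protein of fibroblasts. The nearest gene was Rnf145 (0.998) for Pdgfra, Atg4b (0.993) for Ly6a and Col11a1 (0.989) for Cd34. It was Cd55 (0.991) for Dcn, Kansl1l (0.988) for Lum and Lrtm1 (0.989) for Clec3b.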

How the data were processed

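Groups and replicate numbers were read from the sample titles. The authors deposited TPM per gene and library, with mm10 named in the submitters' processing notes. One deposited file holds the 24 injured libraries, and a second, quantified separately, holds control beside WT D1. The aligner, the counting tool and strand use are not given in the sources used here. The deposited group means matched the means of their libraries within 3.33e-05 TPM. The columns of gene annotation were not used beyond name, identifier and length. TPM keeps no read number, so depth is unknown and no counting interval was made. Precision rests on 3 libraries per group and on a spread that the groups of a fit share. TPM measures a share of the library, so abundant transcripts bear on every value, and the top 50 genes took from 25.4% to 61.4% of it.

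Values were taken as log2(TPM + 1), a scale that understates the change of low genes, over genes with TPM of 1 or more in 3 or more libraries (15718 in the injured table, 13041 in the control table). Tests were made with limma 3.58.1 in R 4.3.3, two-sided, with group means, empirical Bayes moderation and a variance trend, with all 8 injured groups in 1 fit and control with WT D1 in another, and p-values were adjusted over all genes of a comparison (Benjamini-Hochberg). A gene is called where its adjusted p is under 0.05. The scripts were tested on simulated data. Alternatives were the pseudocount (0.1 or 0.5), the filter (none or 5 TPM), median-of-ratios scaling, quantile normalization, removal of the 50 most abundant genes, library quality weights, a replicate block, a fit of only the groups compared, leaving out each library in turn and, chosen after seeing the data, leaving out KO D4 replicate 2 with KO D7 replicate 2. P-values rest on the spread between libraries within groups, shared over all groups of a fit. They do not reflect the spread of the 2 groups compared alone.

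The 10 members, 16 other gene lists and the tests were chosen with earlier results of these data known. Named were all members and, from each other list, at most the 2 called genes with the largest difference in each direction in a comparison, the first 2 genes of each list of another cell type, and by likeness at most the 5 tested genes with the highest r over the 8 group means. Some genes that this rule names are not reported here. Promoter sequences are those of RefSeq.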

Additional observations from a re-analysis of the deposited data

Results flagged for a closer look

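Clec3b was singled out because every KO library lay below every WT library on D1 and above every WT library on D4. The difference between KO and WT on D4 less that on D1 was 1.15 on the log2 scale (SE 0.43, unadjusted p = 0.014, adjusted p = 0.204 with limma over all genes), and it did not pass the adjustment. The F test over the 4 days gave Clec3b an adjusted p of 0.527. On D1 the highest KO library was at 54.9 TPM and the lowest WT library at 55.7 TPM. WT D1 replicate 3, at 124 TPM the highest for Clec3b, had summed leukocyte markers of 731.5 TPM beside 2244 and 3592 TPM in the other WT D1 libraries. Without that library the D1 difference between KO and WT went from -0.76 to -0.42. The part of leukocytes in the difference was not tested. This gene was chosen after its values were seen.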

How the results depend on the processing

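Counts of members called were recomputed under 253 alternatives over 13 results, and 220 stayed within 1.5 times the reported count, where a 0 that stayed 0 was included. In the reported fit at most 0.00636% of all genes were called between KO and WT or from D4 to D7 in KO. Agreement for those results therefore says little. Between KO and WT the count was 0 on every day, averaged and by day under every alternative run, and of 1020 recomputed member differences between genotypes none reached an adjusted p under 0.05, although 82 changed sign. With the replicate block, that is with the replicate number as a term, the counts were 6 and 5 from D1 to D4 in WT and KO, 3 from D7 to D14 in WT, and 4 in place of 3 for WT D1 against control, where Clec3b (-0.72) was called lower. Of the 120 member differences, the other 119 kept their call under the block. The numbers were not taken to pair libraries: same-numbered WT and KO libraries had correlations of their deviations from -0.40 to 0.39 across genes, and control and WT D1 libraries from 0.00213 to 0.0611, and the block moved no count by over 1.5 times. Median-of-ratios scaling gave 2 members from D1 to D4, 3 from D4 to D7 and 1 from D7 to D14 in WT, and 6 for WT D1 against control, where Cd34 reversed from 0.36 to a called -0.42. Quantile normalization gave 4 from D4 to D7 in WT, 8 from D1 to D4 in KO and 5 against control. Removing the 50 most abundant genes gave 2 from D1 to D4 and 4 from D4 to D7 in WT. Library quality weights gave 3, 8 and 8 for the 3 WT steps, 7 from D7 to D14 in KO and 9 against control, although the estimate of the weights stopped before it converged. With those weights 7861 of the 15718 genes were called from D7 to D14 in KO. Fitting only the 2 groups compared gave 2, 2 and 6 for the WT steps and 1 from D1 to D4 in KO, and no filter on low values also gave 1 there. Leaving out KO D4 replicate 2 and KO D7 replicate 2 together, an alternative chosen after seeing the data, gave 2 from D4 to D7 and 6 from D7 to D14 in WT and 4 from D7 to D14 in KO. Leaving out each library in turn gave from 2 to 6 members from D1 to D4 and from 0 to 4 from D7 to D14 in WT, from 1 to 5 and from 0 to 3 for these steps in KO, and from 2 to 8 against control. The lowest WT count from D7 to D14 was without WT D14 replicate 3, and the highest count against control without WT D1 replicate 3. The cause of these shifts was not tested. Apart from the counts over all genes given in this section, shares of all genes called under the alternatives are not reported. The counts of members under them therefore do not set the members apart from other genes. Over all genes, the count of 88 called from D7 to D14 in KO was 433 under median-of-ratios scaling, 2084 without the 2 KO libraries and 7861 with quality weights, and that of 3049 from D1 to D4 in KO was 302 when only the 2 groups entered. The fit of only the 2 groups was not run for the average over days, the test by day or the control comparison. Both pseudocounts and the 5 TPM filter left all counts within 1.5 times.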

Other observations

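Adipocytes are a cell type that FAPs can form. Of 11 adipocyte genes tested, 8 had an unadjusted p under 0.05 between KO and WT on D14 and 0 an adjusted p under 0.05 with limma, where the lowest was 0.22, beside 2.06% of all genes at an unadjusted p under 0.05. Their median log2 difference between KO and WT was 0.94, beside -0.05 over the FAP markers and 0.08 over all genes. On D14 the summed adipocyte genes were at 1715, 1547 and 1702 TPM in WT and at 1905, 3788 and 1995 TPM in KO. The genotypes did not overlap in this sum on D14, and KO D14 replicate 2 lay far above the other libraries. They did not overlap on D4 either, with 702 to 1067 TPM in WT and 1185 to 1616 TPM in KO, but did on D1 and D7. Among all genes taken singly, 14.0% on D4 and 8.42% on D14 had genotypes that did not overlap. Control muscle, in its own table, had sums of 1684 to 1715 TPM. Adipoq and Plin1, given above, were a small part of the sum, which other genes of the list made up. Which cells these transcripts came from was not tested, so the sum cannot be read as a measure of adipocytes alone.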
